A study of Mus musculus with 6 samples.

Results

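PU.1 and C/EBPβ, transcription factors that bind DNA at enhancers and promoters of macrophages, were placed relative to acetylated histone H3 lysine 9 (H3K9Ace) in the same cell type. All regions that the authors called on the 19 autosomes were taken: 45485 of PU.1, 24024 of C/EBPβ and 36757 acetylated domains, together 106266 of the 163892 regions in the final lists of the series. The cells were primary macrophages of male C57BL/6 mice. They were drawn into the peritoneal cavity by 1 ml of sterile 3% thioglycollate, an irritant that recruits inflammatory cells, recovered by lavage on day 3 and purified by 24 h of adherence in culture. No genotype, drug or time course was compared. Per the labels' protocols each sequencing run pooled cells from at least 4 animals, so animals cannot be told apart. Occupancy was measured by ChIP-seq, in which chromatin fragments bound by an antibody are sequenced. Each factor and the mark had 1 library, so there are no replicates. Every interval below covers counting error over regions of 1 library, neighbouring regions are not independent, and the spread over the 19 autosomes is given as a second, separate measure. The lists hold positions without a score or read number, so depth is unknown. The cell type was not checked against marker genes, since no gene annotation of the build of the files (mm8) was used here.

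PU.1 is an ETS-family factor required for the myeloid lineage, and it can bind sites in closed chromatin and open them for other factors. C/EBPβ is a leucine-zipper factor that is abundant in activated macrophages and often binds beside PU.1. Acetylation of H3K9 is placed by histone acetyltransferases that bound factors recruit, and it marks active promoters and enhancers. A factor's own binding site is commonly short of nucleosomes, while the mark sits on the nucleosomes around it.

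The domains were few and mostly narrow. They covered 52.3 Mb, 2.18% of the 2395 Mb between the first and last region of each autosome. Their median width was 1050 bp, with none under 500 bp and the widest at 22400 bp. Of all domains 15841 (43.1%) were 500 to under 1000 bp wide, 13332 (36.3%) were 1000 to under 2000 bp, 7036 (19.1%) were 2000 to under 5000 bp and 548 (1.49%) were 5000 bp or wider. The narrowest class held 21.3% of the acetylated bases and the widest 7.10%. Factor regions were smaller, with median widths of 239 bp for PU.1 and 275 bp for C/EBPβ.

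From the side of the factors, 58.9% of PU.1 and 49.0% of C/EBPβ regions lay away from acetylation. A region was called inside when all of it fell within a domain, at the edge when it shared at least 1 bp but crossed a boundary, and outside when it shared none. Of the PU.1 regions 15349 were inside (33.7%, 95% Wilson interval 33.3 to 34.2), 3351 at an edge (7.37%, 7.13 to 7.61) and 26785 outside (58.9%, 58.4 to 59.3). Of the C/EBPβ regions 9988 were inside (41.6%, 41.0 to 42.2), 2262 at an edge (9.42%, 9.05 to 9.79) and 11774 outside (49.0%, 48.4 to 49.6). The acetylated part, inside and edge together, was thus 41.1% for PU.1 (40.7 to 41.6) and 51.0% for C/EBPβ (50.4 to 51.6). Both shares stand beside the 2.18% of the span that the domains cover. PPARγ, a nuclear receptor mapped in the same cells, had 45.7% of its 1924 autosomal regions inside (43.5 to 47.9), 13.0% at an edge (11.6 to 14.6) and 41.3% outside (39.1 to 43.5). Its list is much shorter and its regions are wider, with a median of 318 bp. The 3 factors were not compared at equal width or list length.

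Among acetylated regions, those wholly inside made up 82.1% for PU.1 and 81.5% for C/EBPβ. Edge regions usually leaned inward. The centre lay in the domain for 1982 of the 3351 PU.1 edge regions (59.1%) and 1383 of the 2262 C/EBPβ edge regions (61.1%), and the median share of the region's bases in the domain was 60.2% and 61.4%. Few edge regions bridged neighbouring domains, 51 of PU.1 and 61 of C/EBPβ.

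**Figure D1:**
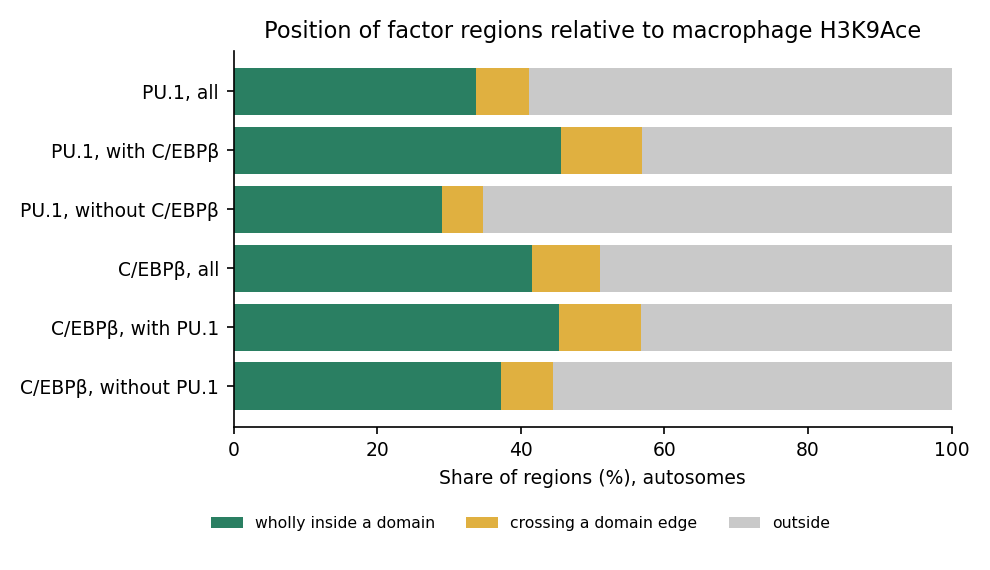
Share of PU.1 and C/EBPβ regions (horizontal axis, percent) wholly inside a macrophage H3K9Ace domain, crossing its edge or outside all domains, for all regions of a factor and for those with or without the other factor. Regions with both factors have 56.8% and 56.7% of their number in or at a domain, PU.1 regions without C/EBPβ 34.8%.

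Regions that carried both factors were acetylated most often. A PU.1 region was called joint when it shared at least 1 bp with a C/EBPβ region, which held for 13080 PU.1 regions (28.8%) and, counted from the other side, for 12856 C/EBPβ regions (53.5%). Of the joint PU.1 regions 7430 were acetylated (56.8%, 56.0 to 57.7), against 11270 of the 32405 without C/EBPβ (34.8%, 34.3 to 35.3). The odds ratio was 2.47 (95% interval 2.37 to 2.57, 2-sided Fisher's exact test), with a p too small for double precision, and the joint share was higher on 19 of 19 autosomes. For C/EBPβ the shares were 56.7% with PU.1 (55.8 to 57.6) and 44.4% without (43.5 to 45.3), and again the joint share was higher on 19 of 19 autosomes. By Fisher's exact test the odds ratio was 1.64 (1.56 to 1.73), adjusted p = 1.37e-80. These tests belong to a family of 7 with Benjamini-Hochberg adjustment. Each factor and the mark had 1 library, so the regions they compare are not replicates.

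Of sites with a single factor, those of C/EBPβ were acetylated more often than those of PU.1. The shares were 44.4% for C/EBPβ without PU.1 and 34.8% for PU.1 without C/EBPβ, and by Fisher's exact test the odds for PU.1 were 0.667 times those for C/EBPβ (0.639 to 0.697), adjusted p = 1.4e-72. C/EBPβ had the higher share on every one of the 19 autosomes. Within quartiles of region width, a stratification added after seeing the data, the Mantel-Haenszel odds ratio was 0.730 (0.698 to 0.764). The classes come from different libraries of unknown depth, and the PU.1 list is the longer. What part of the difference follows from that was not tested. As densities of region centres, PU.1-alone sites stood at 199.8 per Mb of domain and 9.38 per Mb outside, a ratio of 21.3 (95% interval 20.8 to 21.8). C/EBPβ-alone sites stood at 88.5 and 2.79 per Mb, a ratio of 31.7 (30.5 to 32.9). Joint sites, counted as PU.1 regions, stood at 131.9 and 2.64 per Mb, a ratio of 49.9 (48.2 to 51.7). PU.1 alone was thus the most frequent kind of site on both sides of the boundary, and joint sites had the steepest contrast.

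Acetylated regions of both factors were also wider than the others. PU.1 regions inside domains had a median width of 268 bp, those at an edge 308 bp and those outside 221 bp. For C/EBPβ the medians were 299, 342.5 and 248 bp. The share was also higher in wider regions when position was read from the centre. From the narrowest to the widest quartile of PU.1 regions the share with its centre in a domain was 24.0%, 32.6%, 41.0% and 55.2%. For C/EBPβ it was 33.7%, 41.5%, 50.4% and 64.0%. Joint regions were wider too, with a median of 305 bp against 221 bp for PU.1 without C/EBPβ and of 308 bp against 243.5 bp for C/EBPβ without PU.1. Within quartiles of region width, a stratification added after seeing the data, the joint regions kept the higher acetylated share, with Mantel-Haenszel odds ratios of 1.79 (1.72 to 1.87) for PU.1 and 1.27 (1.20 to 1.34) for C/EBPβ. In the widest quartile 66.2% of joint PU.1 regions were acetylated and 53.0% of the others, and for C/EBPβ the same shares were 70.5% and 66.8%. Of the 4 quartiles of each factor, the difference was smallest in this one of C/EBPβ. Whether width follows the strength of binding was not tested, since the lists carry no score.

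**Figure D2:**
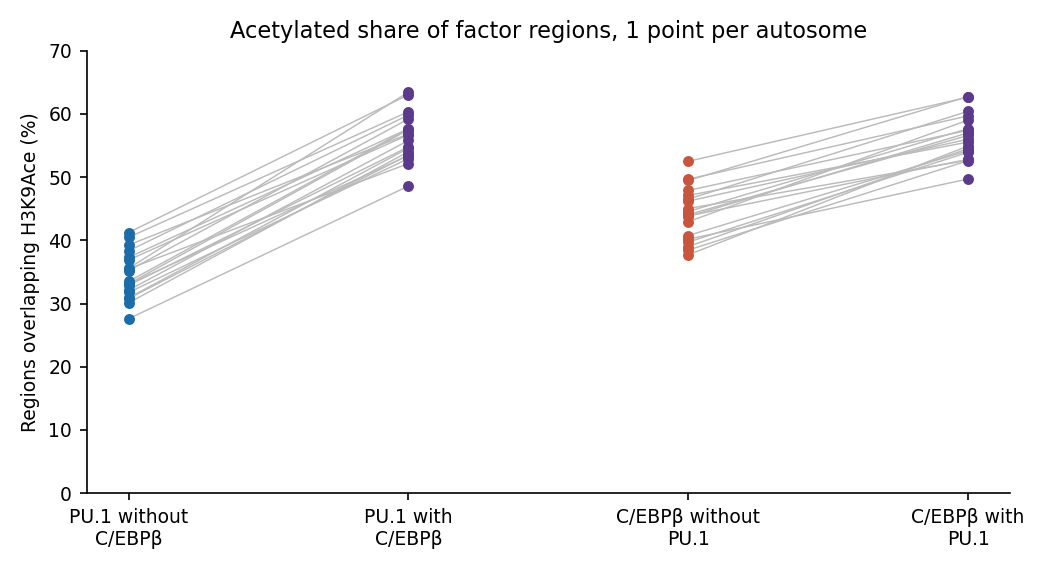
Share of PU.1 and C/EBPβ regions that overlap macrophage H3K9Ace (vertical axis, percent), with 1 point per autosome and grey lines joining the same autosome. The share is higher with the other factor on all 19 autosomes for both PU.1 and C/EBPβ, from 27.6% to 41.2% for PU.1 without C/EBPβ and from 48.6% to 63.5% with it.

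The acetylated share varied by chromosome. For PU.1 it ran from 33.1% on chromosome 18 to 47.3% on chromosome 11, with a median of 40.6%. For C/EBPβ the same chromosomes had the lowest and highest shares, 45.2% and 57.9%, with a median of 50.8%. These chromosomes were also the extremes of acetylation itself, since domains covered 1.48% of the span of chromosome 18 and 3.85% of chromosome 11. Within domains the density of each factor varied less over the autosomes than this coverage did. It ran from 0.309 to 0.360 centres per kb for PU.1 and from 0.195 to 0.249 for C/EBPβ.

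Density changed steeply across the boundary and kept changing far from it. Every base of the span was assigned to its distance from the nearest domain edge, and centres were counted per Mb of sequence at that distance, with exact Poisson intervals. Over all domains PU.1 had 331.7 centres per Mb and outside 12.0, a ratio of 27.6 (27.1 to 28.1) that ranged from 19.2 to 36.3 over the autosomes. C/EBPβ had 217.6 and 5.40 per Mb, a ratio of 40.3 (39.3 to 41.3, autosomes 29.9 to 52.5). PU.1 density was 1.32 per Mb more than 100 kb from any domain, 21.0 at 10 to 20 kb, 48.1 at 1 to 2 kb and 126.0 in the last 250 bp outside. It then was 207.5 in the first 250 bp inside, 365.5 in the next 250 bp and 434.0 at 1 to 2 kb from the edge. C/EBPβ followed the same course from 0.478 per Mb beyond 100 kb to 74.1 in the last 250 bp outside, 126.8 in the first 250 bp inside and 306.5 at 1 to 2 kb from the edge. More than 100 kb from any domain lay 1192 Mb of the span, and it held 3.45% of the PU.1 and 2.37% of the C/EBPβ centres.

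**Figure D3:**
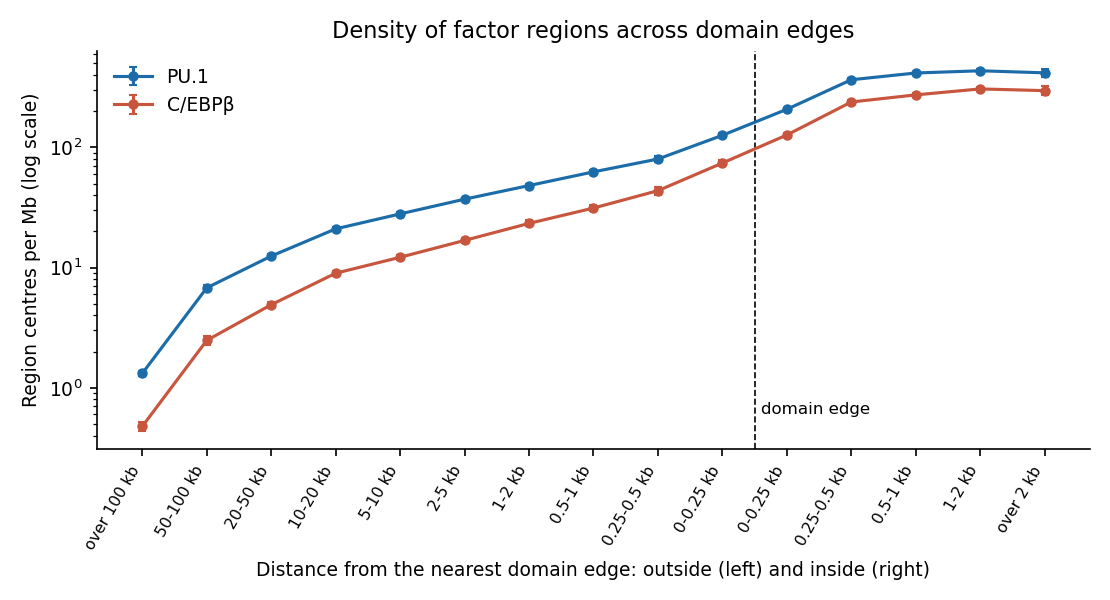
Density of PU.1 and C/EBPβ region centres (vertical axis, centres per Mb, log scale) by distance from the nearest edge of a macrophage H3K9Ace domain, outside to the left and inside to the right of the dashed line. Bars are exact Poisson 95% intervals. PU.1 goes from 1.32 per Mb beyond 100 kb to 434.0 per Mb at 1 to 2 kb inside, and C/EBPβ from 0.478 to 306.5.

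Regions outside domains were often near one. The median gap between an outside region and the nearest domain was 6.86 kb for PU.1 and 5.74 kb for C/EBPβ. Of the outside PU.1 regions 4462 (16.7%) lay within 1000 bp of a domain and 1568 (5.85%) more than 100 kb away. For C/EBPβ these counts were 2310 (19.6%) and 569 (4.83%). Joint sites outside were nearer, with a median of 4.83 kb counted as PU.1 regions, against 7.52 kb for PU.1 without C/EBPβ. C/EBPβ without PU.1 lay at a median of 6.57 kb. The share of PU.1 centres with C/EBPβ accordingly differed along the distance, from 15.4% beyond 100 kb and 20.4% at 5 to 10 kb to 34.6% in the last 250 bp outside and 43.6% at 1 to 2 kb inside. For C/EBPβ centres the share with PU.1 was 42.4%, 46.4%, 57.0% and 60.6% at the same distances.

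Short gaps between neighbouring domains were denser in factors than long ones. In gaps under 500 bp, of which there were 2630, PU.1 had 0.221 centres per kb (95% interval 0.188 to 0.258) and C/EBPβ 0.159 (0.131 to 0.191). In gaps of 1000 to under 2000 bp the densities were 0.107 (0.0975 to 0.117) and 0.0609 (0.0538 to 0.0687). In gaps of 5000 to under 20000 bp they were 0.0525 and 0.0259. The gaps under 500 bp thus had a PU.1 density close to that of the narrowest domains, 0.209 per kb, and a C/EBPβ density above the 0.121 per kb of those domains. They hold only 157 PU.1 and 113 C/EBPβ centres, 0.345% and 0.470% of the lists. The domains lie on a grid of 50 bp, so positions within short gaps are known no better than that.

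From the side of the mark, more than 50% of the domains carried neither factor, and contents followed width. Over all widths 13918 domains overlapped PU.1 (37.9%, 37.4 to 38.4) and 9905 overlapped C/EBPβ (26.9%, 26.5 to 27.4). Both factors were found in 7177 (19.5%, 19.1 to 19.9), PU.1 without C/EBPβ in 6741 (18.3%), C/EBPβ without PU.1 in 2728 (7.42%) and neither in 20111 (54.7%, 54.2 to 55.2). Domains with both had a median width of 1750 bp and held 30.4% of the acetylated bases. Domains with neither had a median of 850 bp and held 39.8%. PU.1 regions covered 10.1% of the acetylated bases and C/EBPβ regions 7.25%.

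In domains of 500 to under 1000 bp PU.1 lay in 17.5%, C/EBPβ in 10.8%, both in 6.48% and neither in 78.2% (77.5 to 78.8). In domains of 1000 to under 2000 bp the shares were 45.4%, 32.7%, 23.0% and 44.9% (44.0 to 45.7). In domains of 2000 to under 5000 bp they were 64.9%, 48.2%, 37.7% and 24.6% (23.6 to 25.6). In the 548 domains of 5000 bp or more they were 94.0%, 81.4%, 78.3% and 2.92% (1.81 to 4.69), which left 16 such domains with neither. A wider domain has more room for a region, so these shares were not tested against each other. Domains that carried PU.1 held 1.07 PU.1 regions on average in the narrowest class and 2.92 in the widest, and those with C/EBPβ held 1.05 and 2.36 C/EBPβ regions. At least 2 PU.1 regions lay in 195 of the 15841 narrowest and in 411 of the 548 widest domains.

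Per kb of domain the widths differed far less, and mainly at the narrow end. PU.1 had 0.209 centres per kb in domains under 1000 bp (95% interval 0.201 to 0.218), 0.375 at 1000 to under 2000 bp (0.366 to 0.384), 0.349 at 2000 to under 5000 bp (0.340 to 0.357) and 0.400 at 5000 bp or more (0.380 to 0.421). C/EBPβ had 0.121 (0.115 to 0.128), 0.254 (0.246 to 0.261), 0.228 (0.221 to 0.235) and 0.280 (0.263 to 0.297). Against the narrowest class the widest was denser by 1.91 times for PU.1 (1.79 to 2.04) and 2.31 times for C/EBPβ (2.13 to 2.50), on 19 of 19 autosomes for each factor. The order was not a steady one. The density at 2000 to under 5000 bp was below that at 1000 to under 2000 bp, by a ratio of 0.929 for PU.1 (0.898 to 0.961) and 0.899 for C/EBPβ (0.863 to 0.937). It was the higher of the pair on only 3 of 19 autosomes for PU.1 and 2 of 19 for C/EBPβ. The widest class was above it again, by 1.15 times for PU.1 (1.08 to 1.21, 15 of 19 autosomes) and 1.23 times for C/EBPβ (1.15 to 1.31, 17 of 19). These are among 19 ratios of densities computed, and their intervals are not adjusted for that number. Split by overlap with adipocyte domains, described below, PU.1 did not show the fall between the middle classes in either part. Its density was 0.469 and then 0.516 per kb without overlap, and 0.302 and then 0.319 with it. C/EBPβ had 0.301 and 0.354 without overlap, and 0.216 and 0.206 with it. With overlap, the intervals of the pair overlapped for each factor. The excess over narrow domains was smaller when every region with 1 bp of overlap was counted, 1.51 times for PU.1 and 1.77 times for C/EBPβ, because such a count also takes in edge regions with the centre outside.

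**Figure D4:**
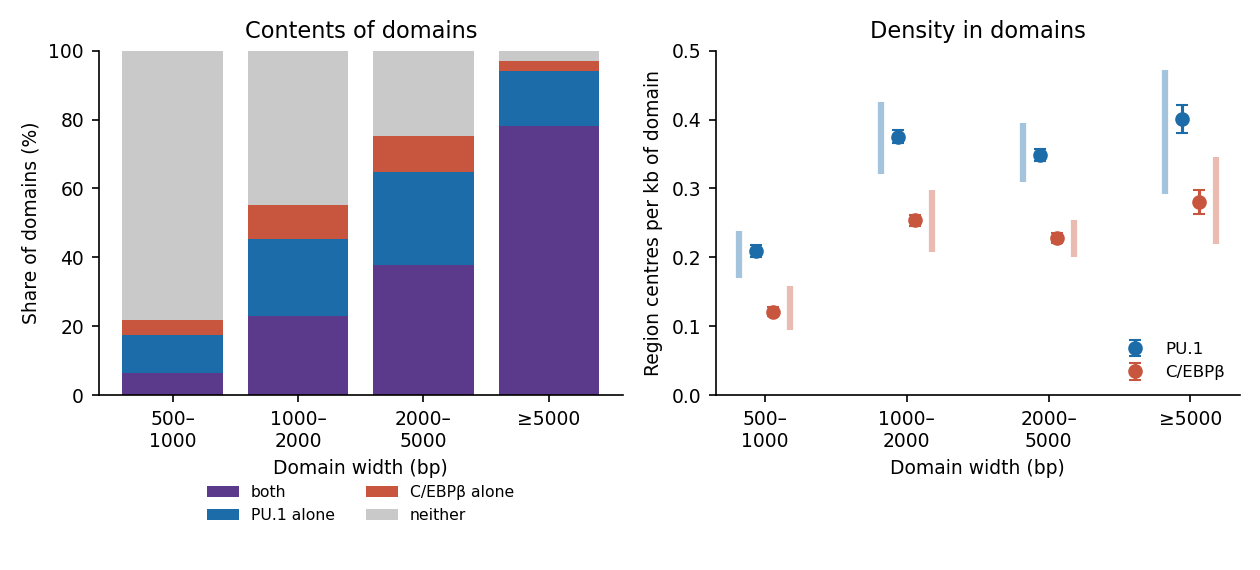
Left, share of macrophage H3K9Ace domains (percent) with both factors, 1 factor or neither, by domain width. Right, centres per kb of domain for PU.1 and C/EBPβ, with exact Poisson 95% intervals on the points and pale bars from the lowest to the highest autosome. Domains with neither go from 78.2% in the narrowest to 2.92% in the widest class, while PU.1 density goes from 0.209 to 0.400 per kb.

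Within a domain the factors were sparse near the edges. With each domain split into 5 equal parts, evenly spread centres would put 40% in the outermost parts at both ends and 20% in the central part. PU.1 had 28.6% (27.9 to 29.3) of its centres in the outermost parts and 24.3% (23.7 to 24.97) in the central one, and C/EBPβ had 27.9% (27.1 to 28.8) and 25.3% (24.5 to 26.1). In domains of 5000 bp or more the spread was closer to even, with 36.0% of PU.1 and 36.5% of C/EBPβ centres in the outermost parts. There, a fixed distance shows the thin zone better. In these domains PU.1 density was 0.197 per kb in the first 250 bp (0.148 to 0.257), 0.314 in the next 250 bp (0.251 to 0.388), 0.378 at 500 to 1000 bp (0.328 to 0.433) and 0.463 at 1000 to 2000 bp (0.423 to 0.505). C/EBPβ had 0.0985 per kb (0.0649 to 0.143) in the first 250 bp and 0.322 (0.289 to 0.357) at 1000 to 2000 bp. The low density thus lay mostly within the outer 500 bp of wide domains, and for PU.1 the intervals of neighbouring bins beyond that depth overlap. In domains of 1000 to under 2000 bp PU.1 went from 0.2496 per kb in the first 250 bp to 0.458 in the next, and C/EBPβ from 0.169 to 0.309. In domains under 1000 bp the rise was smaller. PU.1 density was 0.194 per kb in the first 250 bp (0.184 to 0.204) and 0.246 (0.229 to 0.264) beyond it. At the same depth, 250 to 500 bp from an edge, the density in these domains was below that of every wider class, whose lowest value was 0.303 for PU.1.

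PU.1 and C/EBPβ shared domains more often than their separate frequencies give. In domains of 500 to under 1000 bp, 1027 had both where independence within the class would give 299.6. The odds ratio was 10.7 (9.55 to 11.9) there, 4.75 (4.39 to 5.15) at 1000 to under 2000 bp, 3.25 (2.92 to 3.61) at 2000 to under 5000 bp and 4.68 (2.12 to 10.3) at 5000 bp or more. Fisher's exact tests gave an adjusted p too small for double precision in both narrower classes, 5.4e-115 in the third and 5.14e-05 in the widest. The ratio exceeded 1 on 19 of 19 autosomes in each class but the widest, where it did so on 11, since only 33 of those domains lacked PU.1. Over the width classes the common odds ratio was 5.01 (Mantel-Haenszel, 4.74 to 5.29). C/EBPβ was also more frequent in domains with more PU.1 regions in the 3 classes below 5000 bp. At 2000 to under 5000 bp it lay in 29.9% of domains without PU.1, 49.5% of those with 1 PU.1 region, 68.0% with 2 and 78.4% with 3 or more. In the narrowest class the first 3 of these shares were 5.21%, 35.4% and 56.9%. At 5000 bp or more the order was not steady, with 51.5%, 77.9%, 73.9% and 89.9%. A domain with more PU.1 regions offers more sites at which C/EBPβ can overlap one. Widths within a class were not held equal, and these shares were not tested against each other.

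Where a domain had both factors, they mostly met on the same stretch of DNA. In 6234 of 7177 such domains (86.9%, 86.1 to 87.6) at least 1 PU.1 region overlapped a C/EBPβ region, and the nearest pair of centres was a median of 55 bp apart. The share was 95.5% in the narrowest class, 90.4% and 79.9% in the middle classes and 83.9% in the widest. In the other 943 domains the nearest centres were a median of 672 bp apart. Sharing a domain thus largely restates sharing a site, and the joint sites are the same ones described from the side of the factors. The share of PU.1 centres that carried C/EBPβ was 34.9% in the narrowest domains (33.0 to 36.9), 42.2% at 1000 to under 2000 bp, 37.9% at 2000 to under 5000 bp and 44.9% in the widest (42.4 to 47.4).

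Acetylation in 3T3-L1 adipocytes, an established mouse preadipocyte line differentiated in culture, served as the control for acetylated chromatin outside the macrophage domains. The adipocyte mark also had 1 library of unknown depth. Its domains covered 4.12% of the span, against 2.18% in macrophages, and which domains count as shared depends on both lists. The macrophage factors were less dense in the domains of adipocytes alone than in those of macrophages. PU.1 had 0.371 centres per kb (0.363 to 0.380) in the 18977 macrophage domains without adipocyte overlap, 0.309 (0.303 to 0.315) in the 17780 with it and 0.0349 (0.0332 to 0.0367) in the 34513 domains acetylated in adipocytes alone. C/EBPβ had 0.235 (0.228 to 0.242), 0.207 (0.202 to 0.212) and 0.0222 (0.0208 to 0.0236). Per Mb, the domains of adipocytes alone had 34.9 PU.1 and 22.2 C/EBPβ centres, above the 12.0 and 5.40 of everything outside macrophage domains, of which they are a part. That difference was not tested. Domains of macrophages alone exceeded those of adipocytes alone 10.6-fold for each factor, with intervals of 10.1 to 11.3 for PU.1 and 9.90 to 11.4 for C/EBPβ. The ratio rested on how the classes were drawn. It was 6.16 for PU.1 and 6.21 for C/EBPβ when a domain counted as shared only with 50% of its length acetylated in the other cell type. Domains of adipocytes alone carried neither factor in 93.2% of cases (93.0 to 93.5), against 61.4% in macrophages alone and 47.6% of the macrophage domains with adipocyte overlap.

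Within each width class macrophage domains without adipocyte overlap had more centres per kb than those with it. The intervals of C/EBPβ overlap in the narrowest and the widest class. Widths within a class were not equal, with medians of 1100 and 1400 bp at 1000 to under 2000 bp. At 2000 to under 5000 bp the medians were 2500 bp without adipocyte overlap and 2650 bp with it. In this class macrophage domains without adipocyte overlap had 0.516 PU.1 and 0.354 C/EBPβ centres per kb, against 0.319 and 0.206 in those with it. At this width 10.5% of the former and 27.2% of the latter carried neither factor. Below 1000 bp the difference was small, at 0.218 and 0.187 per kb for PU.1 and 0.123 and 0.117 for C/EBPβ, and 78.0% and 78.6% had neither. Domains of macrophages alone were 1093 of the 7036 at 2000 to under 5000 bp and 6286 of the 13332 at 1000 to under 2000 bp. Among domains of macrophages alone PU.1 density was 0.469 per kb at 1000 to under 2000 bp, below the 0.516 of the next class, and among those with adipocyte overlap it was 0.302 and 0.319. For C/EBPβ the values were 0.301 and 0.354 without adipocyte overlap, but 0.216 and 0.206 with it. Counted by region, 8890 PU.1 regions (19.5%) were acetylated in macrophages alone, 9810 (21.6%) in both cell types, 2978 (6.55%) in adipocytes alone and 23807 (52.3%) in neither. For C/EBPβ the shares were 23.5%, 27.5%, 7.35% and 41.7%. Of the span, macrophage domains without adipocyte overlap covered 0.803%, those with it 1.38% and adipocyte domains without macrophage overlap 1.87%. The regions were classed by their own overlap, so their classes do not match these whole domains exactly.

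**Figure D5:**
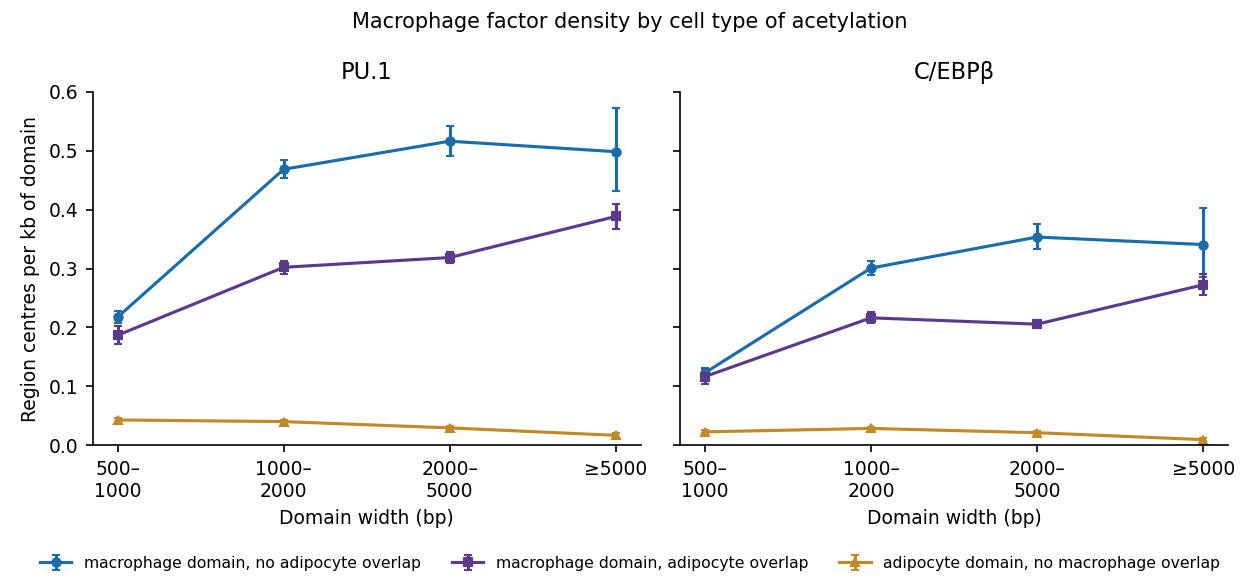
Centres of macrophage PU.1 (left) and C/EBPβ (right) regions per kb of domain, by domain width, in macrophage domains without and with overlap of an adipocyte H3K9Ace domain and in adipocyte domains without macrophage overlap. Bars are exact Poisson 95% intervals. At 2000 to under 5000 bp the PU.1 densities are 0.516, 0.319 and 0.0294 per kb.

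Single domains show the range, with coordinates in mm8 and genes not annotated here. The domain with the most centres lay at chr10:126990501-127004600, 14100 bp wide with 10 PU.1 and 10 C/EBPβ centres, 1.42 per kb. The widest domain of the list, chr7:142187751-142210150, 22400 bp, had 10 and 7. Next came chr4:144156301-144176450 with 8 and 9 centres over 20150 bp, chr11:74643851-74657400 with 8 and 7 over 13550 bp, and chr2:90881751-90890850 with 8 and 7 over only 9100 bp. The last had the highest density of these, 1.65 per kb. Then followed chr19:5838601-5852250 with 7 of each factor over 13650 bp. All 6 overlapped an adipocyte domain too, as did 487 of all 548 domains of 5000 bp or more. The widest domains with neither factor were chr13:63248401-63256250 (7850 bp), chr5:139006701-139013650 (6950 bp), chr8:36273051-36279500 and chr19:21338051-21344500 (6450 bp each). These 4 overlapped an adipocyte domain as well, as did all 16 domains of 5000 bp or more with neither factor.

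At the narrow end, 4 domains of 950 bp each held 2 PU.1 and 2 C/EBPβ centres. They lay at chr2:116614001-116614950, chr3:100569001-100569950, chr7:27285851-27286800 and chr13:114721551-114722500. None overlapped an adipocyte domain, and neither did 11537 of all 15841 domains under 1000 bp. Of the gaps under 2000 bp, those with the most centres had 4. They were chr3:146047351-146048900 and chr19:43722751-43724300, each 1550 bp with 2 of each factor, chr5:66353701-66355300, 1600 bp with 2 of each, and chr11:81821901-81823700, 1800 bp with 3 PU.1 and 1 C/EBPβ.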

How the data were processed

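Per the labels' protocols the authors mapped 36-bp reads to mm8 with ELAND and kept reads with a unique best match and no more than 2 mismatches. The deposited lists give the start and end of called regions. Which peak caller and control made these lists is not stated in those sources. Input-biased areas were masked before the final lists, per the series design. Unique mapping leaves repeats out of all lists. Groups were taken from the titles, which match the antibody field, although the description field names PPARγ for every library. All acetylated domains start and end on a grid of 50 bp. The adipocyte list had 20 repeated rows, counted once. Chromosomes X and Y were left out of the main values.

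Overlaps, Wilson, Poisson and conditional binomial intervals and Fisher's exact tests were computed with Python 3.11.15, pandas 2.3.3 and SciPy 1.17.1. The placing and counting of regions were tested on simulated lists, while the intervals and Fisher's exact tests were not. The domain rules, tests and lists were chosen with earlier results of these data known. Named domains were ranked by number of centres or width, with chromosome 18 left out. Depth is unknown. No mm8 genome was used here, so no sequences are printed.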

Additional observations from a re-analysis of the deposited data

How the results depend on the processing

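At a threshold of 0.05, the odds ratios of joint over single-factor regions, of PU.1 alone over C/EBPβ alone and of sharing a domain (common to all widths) kept direction and call in the alternatives run for each. So did the density ratios inside over outside, widest over narrowest, between neighbouring classes from 1000 bp up, and macrophages alone over adipocytes alone. The alternatives did not include the split by adipocyte overlap, within which the PU.1 order of the middle classes was the reverse. The remaining width ratios, those by kind of site and the odds ratios per width class were computed in the main setting alone. With 50% of the region required in a domain, or its centre, the acetylated share was 38.1% of PU.1 regions (38.1% by centre) and 47.4% (47.3%) of C/EBPβ regions, and domains with PU.1, C/EBPβ, both and neither were 35.3% (35.3%), 25.01% (25.01%), 17.97% (17.97%) and 57.7% (57.7%). Allowing 1000 bp outside a domain gave 50.9% and 60.6%. With domains of 1000 bp or more alone, 34.6% and 43.7% were acetylated, and 30.3% and 38.0% inside. Merging domains over gaps of 1000 bp or less put 35.5% of PU.1 and 44.0% of C/EBPβ regions inside, and gave 40.6%, 29.3%, 21.8% and 51.9% of domains with PU.1, C/EBPβ, both and neither. The wider 50% of factor regions, used since no score exists for a stricter list, were acetylated in 52.0% and 62.1% and inside in 41.4% and 48.7% of cases, and gave 26.7%, 17.6%, 11.7% and 67.4% of domains. Including X and Y moved no share beyond its interval. The joint-site odds ratios ranged from 1.79 to 2.48 for PU.1 and 1.27 to 1.65 for C/EBPβ, and that of sharing a domain from 4.72 to 5.80. Density inside over outside ranged from 27.3 to 41.4 for PU.1 and 40.3 to 59.96 for C/EBPβ. No leave-one-out or paired analysis was possible because each group holds 1 library. Unknown depth limits every count of domains without a factor, since a weak region may have been missed.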

Other observations

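Chromosome X, left out above, was poorer in acetylation than any autosome. Domains covered 0.474% of its span. Of its 866 PU.1 regions 21.8% were acetylated (95% Wilson interval 19.2 to 24.7) and of its 393 C/EBPβ regions 27.7% (23.5 to 32.4), while the lowest autosomal shares were 33.1% and 45.2%. From the side of the mark, PU.1 lay in 31.0% and C/EBPβ in 19.4% of the 474 domains on X, against lowest autosomal shares of 36.4% and 23.7%. The domains on X were wider, with a median of 1300 bp against 1050 bp on the autosomes, and so had more room. Per kb of domain X had 0.230 PU.1 and 0.135 C/EBPβ centres, while the lowest autosomal densities were 0.309 and 0.195. The cells came from male mice, which have a single X, and what part of the shares on X follows from fewer reads there was not tested.

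Chromosome Y had 32 acetylated domains, from 233701 to 2668700 in mm8, with 5 PU.1 and 4 C/EBPβ regions on the whole chromosome. Of these regions 1 of PU.1 and 3 of C/EBPβ overlapped a domain.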
